A study of Mus musculus with 23 samples.

Results

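The genes described here are 10 markers and regulators of epithelial-mesenchymal transition (EMT), chosen by symbol from the 27207 genes counted in each library: the cadherins Cdh1 and Cdh2, Epcam, Ctnnb1, Vim, and the transcription factors Zeb1, Zeb2, Snai1, Snai2 and Twist1. The rule uses gene names and no measured value, but the genes were picked with earlier results of these data known. They were followed by bulk RNA sequencing in 23 libraries of mouse pancreatic ductal adenocarcinoma cells, which form branched organoids in floating collagen gels and spheres in Matrigel, a matrix extracted from a mouse tumor. KC cells carried Ptf1a Cre/+, and they were grown in 2D (n = 6), in Matrigel to day 13 (n = 3), in collagen to day 7 (n = 3) and in collagen to day 13 in batch 1 (n = 5) and batch 2 (n = 3). KPC cells carried Pdx1 Cre/+, and they were grown in collagen to day 13 in batch 2 (n = 3). All groups therefore share a Cre driven in the developing pancreas. Each genotype was 1 cell line from 1 mouse, so that genotype, Cre driver and line cannot be told apart, and p-values cover the spread between cultures of a line. Cells in 2D were lysed directly while organoids were first freed with collagenase, and this step cannot be told apart from the dimension of the culture. The labels give no day for the 2D cells and no age of the mice.

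In EMT, epithelial cells lose the contacts that hold them in a sheet and take up a motile state. Cdh1 (E-cadherin) joins neighbouring cells and is tied to the actin skeleton through Ctnnb1 (beta-catenin), while Vim and Cdh2 mark the mesenchymal state. The Zeb, Snail and Twist factors bind E-box motifs and repress epithelial genes such as Cdh1, and tumor cells often hold intermediate states in which epithelial and mesenchymal genes are expressed together.

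Counts are unique molecular identifiers (UMIs) from 3' ends of polyadenylated RNA, and levels are CPM, counts scaled to a common library size with edgeR's TMM factors. Totals ran from 1221451 to 2471058 counts per library, at which 3 counts, the level that a count of 0 still allows, corresponded to 1.16 to 3.22 CPM. These limits cover counting error only. Of 10 ductal markers 10 passed the filter on low counts, with a summed level of 12576 to 24312 CPM over all libraries. The filter ran over all groups together, so that a gene can pass through the groups where it is high. Onecut1 averaged only 0.16 CPM at day 7. Spp1 and the keratins made up most of the sum, which says little of the other ductal markers. Of 9 fibroblast markers 3 passed, with a summed level of 32.7 to 188 CPM, while Thy1 was at 0 and Col1a1 did not exceed 7 counts in any library. Of 4 immune markers measured only Cd68, a lysosomal protein abundant in macrophages, passed, with at most 83 counts and a summed level of the list of 3.41 to 36.6 CPM. Ptprc, the pan-leukocyte marker, did not exceed 3 counts and Lyz2 and Csf1r did not exceed 1. The acinar gene Cela1 had at most 29 counts, and 4 endothelial markers together did not exceed 2.67 CPM. The 2D replicates 1 to 3 stood apart from 2D replicates 4 to 6, with a root mean square log2 difference of 0.760 between them against 0.535 and 0.376 within. Results on 2D cells are therefore also given without either set. In bulk RNA a lower level can come from fewer cells that express a gene or from less RNA per cell, and these cannot be told apart.

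Of the 10 genes, 9 passed the filter, and Snai1 did not. Each comparison asked which of the 9 differed at an adjusted p under 0.1 by edgeR's quasi-likelihood test with Benjamini-Hochberg adjustment over 11144 genes. Between day 7 and day 13 in collagen, 4 were higher and 2 lower at day 7, where 55.1% of all tested genes were called and 48.3% had groups that did not overlap. Between Matrigel and collagen, 3 were higher in Matrigel and 0 lower, against 12.9% of all tested genes called (6.62% higher, 6.29% lower). At an unadjusted p under 0.05 the members higher in Matrigel also took in Cdh2, Vim and Zeb1, and again none was lower. DESeq2 also called 3 higher and 0 lower. The shares of all genes at this unadjusted p and by DESeq2 are not given, so these counts cannot be set against all genes. Between KPC and KC organoids, 2 were higher in KPC and 0 lower, with 19.9% of all tested genes called (9.58% higher, 10.4% lower). None was lower at an unadjusted p under 0.05, and DESeq2 called 1 higher and 0 lower, again without the shares of all genes. Between batch 2 and batch 1 of the same KC organoids, 3 were higher and 2 lower in batch 2, where 37.3% of all tested genes were called (19.3% higher, 18.1% lower) and 35.9% did not overlap. The 2D cells had 2 genes higher and 4 lower than day 7 organoids and 5 higher and 2 lower than day 13 organoids, with 51.2% (26.4% higher, 24.8% lower) and 49.6% (26.3% higher, 23.3% lower) of all tested genes called. Groups did not overlap for 32.3% and 20.3% of all tested genes. Each comparison shares a group with at least 1 other comparison, and the values are given side by side without a test between them.

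**Figure D1:**
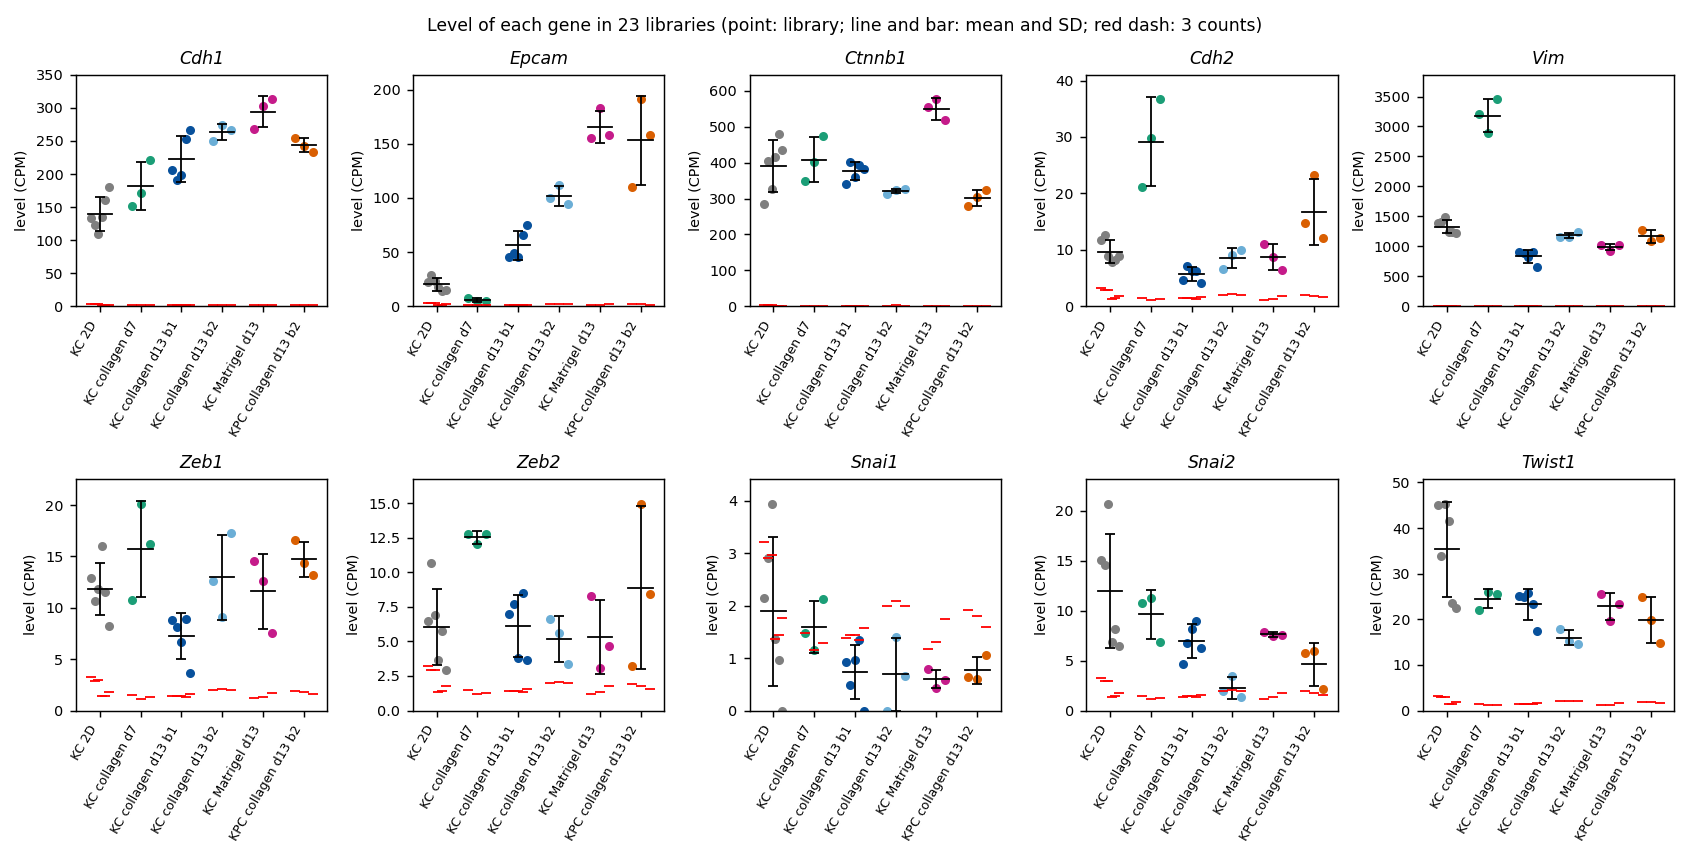
Level (CPM, linear axes from 0) of each of the 10 genes in 23 libraries of 6 groups (d, day; b, batch). Points are libraries, black lines and bars the mean and SD, and red dashes the level of 3 counts in each library. Epcam ranges from 5.87 CPM on average at day 7 to 165 in Matrigel, Vim stands highest at day 7, and Snai1 lies near the red dashes.

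Epcam, which encodes an adhesion molecule of the epithelial surface, varied most of the 10 genes, and its highest group mean was 28.2 times its lowest. Its gene lies on chromosome 17, from 87635979 to 87651129 on the plus strand (GENCODE M21, GRCm38). The 250 bases before its start are printed here because the Snail and Zeb factors bind E-boxes of the form CAGGTG. They come from RefSeq (GRCm38.p6, plus strand, chr17:87635729-87635978), with each CAGGTG on either strand (CACCTG is its reverse complement) in capitals.

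Epcam: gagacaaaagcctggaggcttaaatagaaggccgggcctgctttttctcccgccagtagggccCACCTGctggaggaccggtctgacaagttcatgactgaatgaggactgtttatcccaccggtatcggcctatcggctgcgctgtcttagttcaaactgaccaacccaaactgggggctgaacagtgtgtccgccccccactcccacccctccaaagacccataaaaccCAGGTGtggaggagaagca

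The capitals begin 187 and 19 bases before the gene start. Of 32851 promoters of the same length, 17.2% hold at least 1 such motif and 2.06% hold at least 2. Windows were found for 6 of the 10 genes. Snai1 has 1 match, 126 bases before its start, and the windows of Vim, Zeb2, Ctnnb1 and Twist1 have none. A match is a description of the letters and says nothing of binding in these cells.

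At day 7 the Epcam levels were 7.85, 4.65 and 5.12 CPM, from 12 to 16 counts per library. At day 13 in collagen, batch 1, they were 45.9, 48.9, 45.5, 65.4 and 75.1 CPM. The lowest day 13 library thus lay far above the highest of day 7, and Epcam was lower at day 7 by a log2 fold change of -3.27 ± 0.27 (SE, adjusted p = 3.85e-10 by edgeR). In Matrigel the levels were 155, 183 and 158 CPM, above every library of KC organoids in collagen. The log2 fold change against batch 1 collagen was 1.56 ± 0.18 (adjusted p = 8.64e-07 by edgeR). The only immune marker tested, Cd68, differed in the same direction as Epcam in both comparisons. The summed immune markers were 3.41 to 5.88 CPM at day 7, 12.1 to 22.1 CPM at day 13 in batch 1 and 30.7 to 36.6 CPM in Matrigel. Cd68 made up most of this, was called lower at day 7 (log2 fold change -1.80) and was higher in Matrigel at 32.9 against 16.3 CPM (1.02 ± 0.25, adjusted p = 0.00836 by edgeR). Cela1 was also called lower at day 7 (-1.56). Their part in the member results was not tested.

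In batch 2 the KC organoids gave Epcam levels of 100, 112 and 94.0 CPM, again above all 5 libraries of batch 1, and the log2 fold change between the batches was 0.86 ± 0.19 (adjusted p = 0.00103 by edgeR). The same cells, matrix and day thus differed between batches in this gene. KPC organoids held 110, 191 and 158 CPM, so that their lowest library lay within the KC range of batch 2. Their log2 fold change of 0.59 ± 0.20 passed the threshold (adjusted p = 0.0548 by edgeR), but without KC replicate 1 or 3 or KPC replicate 2 or 3 it ran from 0.39 to 0.57 and did not (adjusted p = 0.137 to 0.299), and DESeq2 gave an adjusted p of 0.1005. Cd68 was called lower in KPC (log2 fold change -1.32), opposite to Epcam. The 2D cells ranged from 14.4 to 29.1 CPM with a median of 19.95. They stood between day 7 and day 13 organoids without overlap with either, at log2 fold changes of 1.73 ± 0.30 against day 7 (adjusted p = 5.44e-05) and -1.53 ± 0.19 against day 13 (adjusted p = 6.31e-07), both by edgeR. Cd68 was called in the direction of Epcam in both (0.97 against day 7 and -0.83 against day 13), and its part was not tested.

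Cdh1 (chromosome 8, 106603351 to 106670246) kept a narrower range. The levels were 268, 303 and 313 CPM in Matrigel and 205, 191, 199, 253 and 267 CPM in batch 1 collagen at day 13. The groups only just failed to overlap, and the log2 fold change was 0.40 ± 0.14 (adjusted p = 0.0820 by edgeR). This call was lost on leaving out any of the 3 Matrigel libraries or collagen replicate 1, 2 or 3, with log2 fold changes of 0.35 to 0.46 and adjusted p of 0.109 to 0.260. It was also lost with scaling by library size alone, where the log2 fold change was 0.46 (adjusted p = 0.191), and against the 8 KC collagen libraries of both batches (0.31, adjusted p = 0.214).

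At day 7 Cdh1 stood at 151, 172 and 222 CPM, which overlaps day 13. The log2 fold change was -0.30 ± 0.15 (95% interval -0.60 to 0.01, adjusted p = 0.0992 by edgeR). It missed the threshold without day 7 replicate 1 or 2 or day 13 replicate 4 or 5, at -0.27 to -0.20 (adjusted p = 0.170 to 0.341). If only library size scaled the counts it missed as well, at -0.34 (adjusted p = 0.164). In the same libraries Epcam differed by over 3 log2 units, so that these epithelial adhesion genes moved by very unequal amounts.

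The 2D cells held the least Cdh1, from 109 to 180 CPM with a median of 134, below every day 13 library of batch 1 (log2 fold change -0.66 ± 0.12, adjusted p = 0.00014 by edgeR). Against day 7 the ranges overlapped at a log2 fold change of -0.36 ± 0.14 (adjusted p = 0.0398 by edgeR), and this call was lost without day 7 replicate 3 (-0.21, adjusted p = 0.296). Cdh1 stood at 250, 274 and 267 CPM in batch 2 KC organoids and at 254, 243 and 233 CPM in KPC organoids. The log2 fold change between them was -0.11 with a 95% interval of -0.45 to 0.22, and between the batches it was 0.24 with an interval of -0.06 to 0.54. Neither passed the test (adjusted p = 0.719 and 0.218 by edgeR).

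Ctnnb1 (chromosome 9, 120929216 to 120960507), whose protein links cadherins to the skeleton and also carries the Wnt signal, was the steadiest of the 10, with a highest group mean 1.82 times its lowest. In Matrigel it reached 554, 576 and 518 CPM, against 341, 403, 360, 393 and 383 CPM in batch 1 collagen. Every Matrigel library lay above every collagen library, at a log2 fold change of 0.55 ± 0.13 (adjusted p = 0.00778 by edgeR). The higher Cd68 in Matrigel, given with Epcam, accompanies this difference too, and its part was not tested. The levels were 349, 401 and 475 CPM at day 7, 314, 324 and 326 CPM in batch 2 KC organoids, and 278, 304 and 323 CPM in KPC organoids. None of the 5 other comparisons passed the test for Ctnnb1, where log2 fold changes ran from -0.23 to 0.12. The last exons of Ctnnb1 overlap Ulk4 on the opposite strand, which received 501 counts in all libraries together, and the use of strand in counting is not given in the sources used here. The opposite-strand genes that overlap exons of Zeb1 (Gm10125) and Zeb2 (Zeb2os) received 15 and 5 counts in all.

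Cdh2 (N-cadherin), which replaces Cdh1 in the textbook cadherin switch, was counted 8 to 86 times per library. At day 7 it stood at 21.1, 29.8 and 36.7 CPM and at day 13 in batch 1 at 4.64, 7.19, 6.22, 6.27 and 4.203 CPM. The groups lay far apart, and the log2 fold change was 2.34 ± 0.23 (adjusted p = 8.76e-09 by edgeR). The study drew a heat map of epithelial and mesenchymal genes from this series. It also reported EMT gene signatures as enriched in Matrigel over collagen, at day 7 over day 13 and in KPC over KC organoids. The direction of such genes in these comparisons is therefore not independent evidence.

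KPC organoids held 14.7, 23.3 and 12.1 CPM of Cdh2 and KC organoids of the same batch 6.62, 9.06 and 9.996 CPM. These groups did not overlap, as for 37.3% of all tested genes in this comparison, and the log2 fold change was 0.95 ± 0.30 (adjusted p = 0.0321 by edgeR). Without KC replicate 1 it was 0.79 (adjusted p = 0.142) and without KPC replicate 2 it was 0.63 (adjusted p = 0.240), and the call was lost in both. In Matrigel Cdh2 stood at 11.02, 8.72 and 6.41 CPM, which overlaps batch 1 collagen and did not pass the test (log2 fold change 0.63, 95% interval 0.04 to 1.22, adjusted p = 0.186 by edgeR). The 2D cells ranged from 7.76 to 12.6 CPM with a median of 8.85, below every day 7 library (log2 fold change -1.65 ± 0.22, adjusted p = 2.13e-06) and above every day 13 library of batch 1 (0.69 ± 0.26, adjusted p = 0.0306), both by edgeR.

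Vim (chromosome 2, 13573927 to 13582826) encodes the intermediate filament vimentin. Its counts, 1253 to 8099 per library, were the deepest among the 10 genes. At day 7 it reached 3208, 2888 and 3452 CPM, while batch 1 organoids at day 13 held 903, 886, 814, 899 and 658 CPM. The day 7 libraries exceeded all 20 other libraries, and the log2 fold change against day 13 was 1.94 ± 0.12 (adjusted p = 1.61e-12 by edgeR). The summed level of the fibroblast markers was 54.6 to 89.1 CPM at day 7 and 50.5 to 102 CPM at day 13 in batch 1, and none of the 3 tested markers passed the test between them.

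In Matrigel Vim stood at 1019, 929 and 1029 CPM, above the 5 collagen libraries of batch 1, but the difference did not pass the test (log2 fold change 0.25, 95% interval 0.01 to 0.50, adjusted p = 0.206 by edgeR). With only the compared groups in the fit the difference passed (adjusted p = 0.0965 by edgeR). Groups without overlap made up 19.5% of all tested genes in this comparison. In batch 2 Vim was at 1159, 1162 and 1232 CPM in KC organoids, higher than in batch 1 by a log2 fold change of 0.51 ± 0.12 (adjusted p = 0.00167 by edgeR). The fibroblast markers went the other way, at a summed 42.4 to 58.0 CPM in batch 2 against 50.5 to 102 CPM in batch 1, with Col3a1 lower (-1.01 ± 0.39, adjusted p = 0.0501 by edgeR). KPC organoids held 1279, 1083 and 1132 CPM and were not separated from KC (log2 fold change -0.02, 95% interval -0.30 to 0.25). The 2D cells ranged from 1224 to 1489 CPM with a median of 1317, at log2 fold changes of -1.26 ± 0.11 against day 7 (adjusted p = 3.49e-09) and 0.68 ± 0.10 against day 13 (adjusted p = 8.04e-06), both by edgeR. The summed fibroblast markers were 61.5 to 188 CPM in 2D, and 1 of the 3 tested markers was called higher in 2D in each of these comparisons. Against day 13 it was Col1a2, a collagen I chain, at 61.1 against 35.1 CPM (0.70 ± 0.27, adjusted p = 0.0400 by edgeR), with overlap. Its part in the 2D results for Vim and the mesenchymal genes was not tested.

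**Figure D2:**
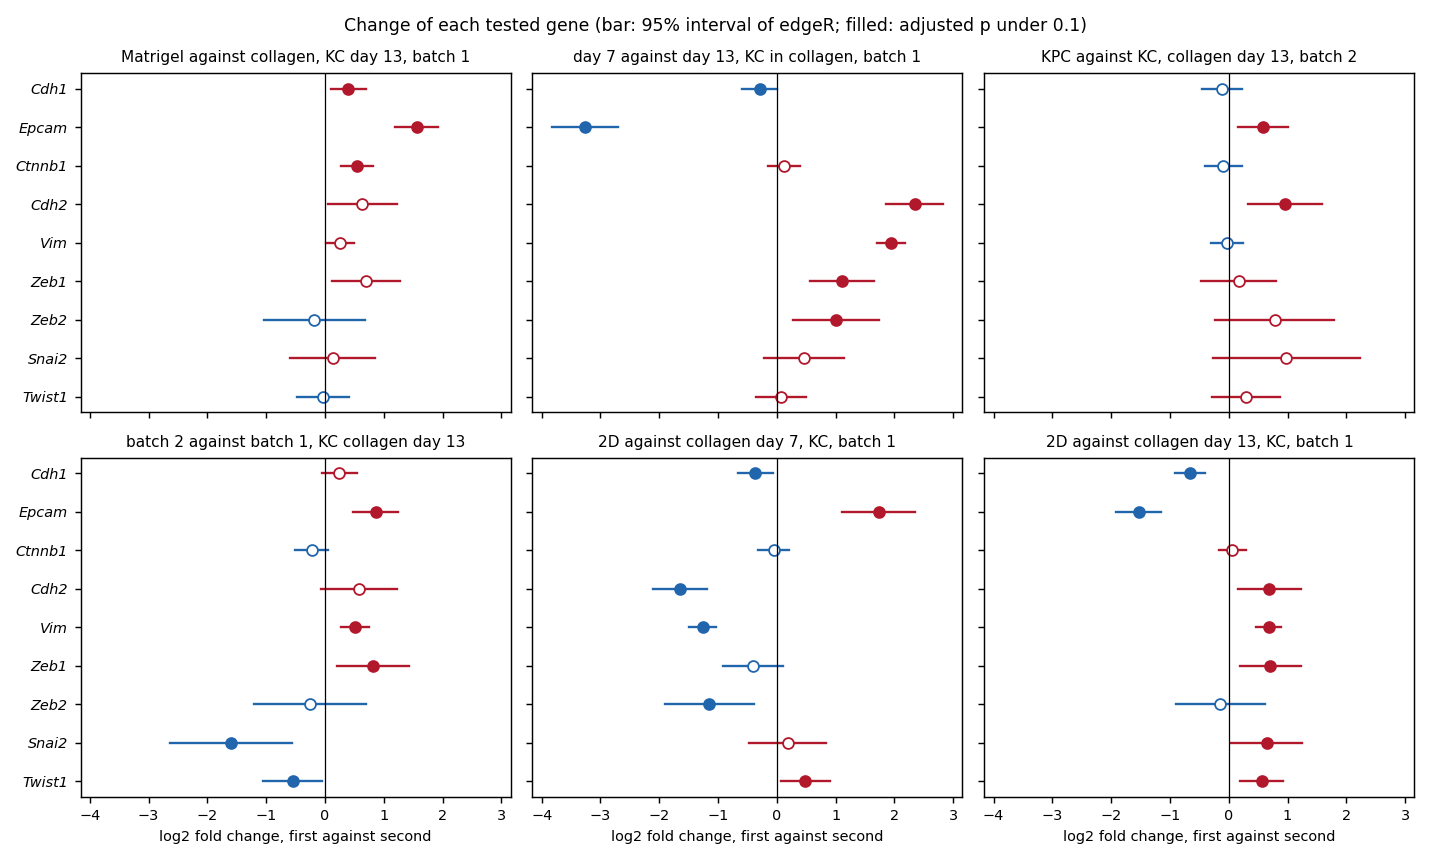
Log2 fold change (x axis) of the 9 tested genes in 6 comparisons, the first group named against the second. Bars are 95% intervals of edgeR's quasi-likelihood fit, filled points have an adjusted p under 0.1, and red and blue mark higher and lower. Epcam moves furthest at day 7 (-3.27), opposite to Cdh2 (2.34) and Vim (1.94).

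The EMT transcription factors were read from few molecules. Zeb1, a zinc finger repressor of Cdh1, had 7 to 52 counts per library. At day 7 it stood at 10.8, 20.1 and 16.2 CPM and at day 13 in batch 1 at 8.81, 8.15, 6.70, 8.96 and 3.68 CPM. All day 7 libraries were higher, and the log2 fold change was 1.11 ± 0.26 (adjusted p = 0.00107 by edgeR). Batch 2 KC organoids held 12.6, 9.06 and 17.3 CPM, higher than batch 1 by 0.82 ± 0.30 (log2, adjusted p = 0.0364 by edgeR), and this call was lost without batch 2 replicate 3 (0.57, adjusted p = 0.261) and, if only library size scaled the counts, at 0.69 (adjusted p = 0.111).

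KPC organoids held 16.6, 14.4 and 13.2 CPM of Zeb1 (log2 fold change 0.17 against KC, 95% interval -0.47 to 0.81) and Matrigel organoids 14.6, 12.6 and 7.58 CPM (0.69 against collagen, 95% interval 0.11 to 1.27, adjusted p = 0.133 by edgeR). The Matrigel difference passed the test without Matrigel replicate 3 (0.89, adjusted p = 0.0743). The 2D cells ranged from 8.24 to 16.0 CPM with a median of 11.7, higher than day 13 by 0.70 ± 0.25 (log2, adjusted p = 0.0260 by edgeR), a call lost against the 8 KC collagen libraries of both batches (0.38, adjusted p = 0.220). Against day 7 the log2 fold change was -0.41 ± 0.25 (adjusted p = 0.191), and it passed without 2D replicate 4 (-0.55, adjusted p = 0.0934) or day 7 replicate 1 (-0.60, adjusted p = 0.0723).

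Zeb2 (chromosome 2, 44983632 to 45117395), the paralog of Zeb1, was near the detection limit, with a median of 10 counts over all libraries. The day 7 libraries were close together at 12.7, 12.01 and 12.8 CPM. Day 13 libraries of batch 1 held 6.95, 7.67, 3.83, 8.51 and 3.68 CPM, all lower, at a log2 fold change of 1.01 ± 0.35 for day 7 (adjusted p = 0.0201 by edgeR). The 2D cells, at 2.94 to 10.7 CPM with a median of 6.10, also lay below day 7 (-1.15 ± 0.37, adjusted p = 0.0132 by edgeR). In KPC organoids Zeb2 was spread from 3.19 through 8.45 to 15.0 CPM, which covers the KC libraries of 6.62, 5.58 and 3.33 CPM, and the Matrigel levels of 8.26, 3.05 and 4.66 CPM overlapped collagen. These comparisons and that of the batches did not pass the test for Zeb2, and the widest 95% interval, for KPC against KC, ran from -0.23 to 1.79.

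Snai1 (chromosome 2, 167538195 to 167542814), the Snail repressor, was at the detection limit. It received 44 counts in the 23 libraries together, at most 5 in any library and 0 in 3 libraries. The counts were 3, 3 and 5 at day 7, and 2, 1, 2, 3 and 0 at day 13 in batch 1. The 2D cells had 0 to 4 counts with a median of 2.5, and the other groups at most 2. With 21 of the 23 libraries at or under 3 counts no fold change is given, and neither presence nor absence of a difference can be read at this depth.

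Snai2 (chromosome 16, 14705852 to 14709385), which encodes Slug, had 2 to 29 counts per library. In batch 1 at day 13 it stood at 4.64, 6.71, 8.14, 8.96 and 6.30 CPM and in batch 2 KC organoids at 1.99, 3.49 and 1.33 CPM, from only 2 to 5 counts. Batch 2 lay wholly below batch 1, at a log2 fold change of -1.60 ± 0.51 (adjusted p = 0.0162 by edgeR). The adjusted p was 0.101 without batch 2 replicate 3, where the log2 fold change was -1.33.

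KPC organoids held 5.75, 5.99 and 2.11 CPM of Snai2 (log2 fold change 0.98 against KC, 95% interval -0.27 to 2.23). Levels were 10.8, 11.2 and 6.82 CPM at day 7 and 7.87, 7.41 and 7.58 CPM in Matrigel, and neither differed from batch 1 collagen by the test (adjusted p = 0.259 and 0.893 by edgeR). The 2D cells ranged from 6.48 to 20.7 CPM with a median of 11.4. Their log2 fold change against day 13 was 0.64 ± 0.30 (adjusted p = 0.0805 by edgeR), and it was lost without 2D replicate 1, 2 or 3 or collagen replicate 1, 2 or 5, at 0.41 to 0.62 (adjusted p = 0.134 to 0.268).

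Twist1 (chromosome 12, 33957671 to 33959829), a basic helix-loop-helix factor, was the best counted of the transcription factors, with 22 to 91 counts per library. Between day 7, at 22.1, 26.0 and 25.6 CPM, and day 13, at 25.04, 24.9, 25.8, 23.3 and 17.3 CPM, the ranges overlapped. The log2 fold change was 0.08 with a 95% interval of -0.35 to 0.50, and it was -0.03 with an interval of -0.47 to 0.41 for the Matrigel levels of 25.6, 19.6 and 23.3 CPM. Twist1 thus did not pass the test in the comparisons of day and matrix.

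Batch 2 KC organoids held 17.9, 15.3 and 14.7 CPM of Twist1 and KPC organoids 24.9, 19.8 and 14.8 CPM (log2 fold change 0.30, 95% interval -0.28 to 0.87). Between the batches the log2 fold change was -0.55 ± 0.24 (adjusted p = 0.0914 by edgeR). Leaving out any batch 2 library or batch 1 replicate 1, 2, 3 or 4 ended the call, at -0.60 to -0.48 (adjusted p = 0.127 to 0.251), as did DESeq2 (-0.52, adjusted p = 0.143). The 2D cells ranged from 22.4 to 45.3 CPM with a median of 37.8, the highest group mean. They exceeded day 13 by 0.56 ± 0.18 (log2, adjusted p = 0.0137 by edgeR) and day 7 by 0.48 ± 0.20 (adjusted p = 0.0558 by edgeR), with overlap in both. The day 7 difference was lost without 2D replicate 1, 3 or 4 or any day 7 library, at 0.38 to 0.52 (adjusted p = 0.103 to 0.165).

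The 2D libraries were not of 1 kind in these genes. Replicates 1 to 3, with TMM factors of 0.738 to 0.772 against 1.04 to 1.06 in replicates 4 to 6, held 14.6 to 20.7 CPM of Snai2 against 6.48 to 8.16 CPM. They were also higher in Epcam (22.6 to 29.1 against 14.4 to 17.4 CPM) and Vim (1386 to 1489 against 1224 to 1247 CPM). They were lower in Cdh1 (109 to 133 against 135 to 180 CPM) and Ctnnb1 (286 to 405 against 416 to 481 CPM), each without overlap. Cdh2 (8.87 to 12.6 against 7.76 to 8.83 CPM) and Zeb2 (6.44 to 10.7 against 2.94 to 5.76 CPM) were higher without overlap as well. The direction of Vim depends on the scaling, with 1291 counts of 1221451 in replicate 1 and 2731 of 2091391 in replicate 4. By library totals alone Vim was lower in replicates 1 to 3, and Epcam, Cdh2 and Zeb2 overlapped. The share of all genes without overlap between the sets was not computed. Totals were also lower in replicates 1 to 3, and whether depth takes part in these differences was not tested. The sets were defined from the data, and no test is given between them.

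Left out together, replicates 1 to 3 took with them the 2D calls against day 13 for Snai2 (log2 fold change 0.01, adjusted p = 0.979), Cdh2 (0.48, adjusted p = 0.235) and Twist1 (0.31, adjusted p = 0.211), and those against day 7 for Cdh1 (-0.18, adjusted p = 0.288) and Twist1 (0.29, adjusted p = 0.275). Ctnnb1 then passed against day 13 (0.21, adjusted p = 0.0724). Without replicates 4 to 6 the call of Zeb2 against day 7 was lost (-0.62, adjusted p = 0.206), while Snai2 (0.81, adjusted p = 0.0253) and Ctnnb1 (-0.26, adjusted p = 0.0598) passed against day 7. Epcam and Vim kept their calls in both 2D comparisons without either set, as did Cdh2 against day 7 and Cdh1 and Zeb1 against day 13, all by edgeR. Scaling by library size alone, which shifted the median of all genes by -0.20 against day 13, ended the calls against day 13 of Zeb1 (0.51, adjusted p = 0.142), Cdh2 (0.49, adjusted p = 0.135), Twist1 (0.33, adjusted p = 0.130) and Snai2 (0.41, adjusted p = 0.213) and that of Twist1 against day 7 (0.31, adjusted p = 0.224).

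The balance of mesenchymal to epithelial transcripts was also taken within each library, as the log2 ratio of counts, which does not depend on scaling between libraries. It is given as a description with no test, and only its change between groups is read. The Vim to Cdh1 ratio was 4.14 ± 0.23 (mean ± SD, n = 3) at day 7 and 3.26 ± 0.37 (n = 6) in 2D, and it lay between 1.75 and 2.25 in the other 4 group means. The Vim to Epcam ratio spanned more, from 9.06 ± 0.38 at day 7 to 2.59 ± 0.21 in Matrigel (n = 3 each). The Cdh2 to Cdh1 ratio was highest at day 7 (-2.65 ± 0.16, n = 3), while KPC organoids (-3.89 ± 0.47, n = 3) lay near the 2D cells (-3.81 ± 0.46, n = 6) and above the KC organoids of batch 2 (-4.91 ± 0.24, n = 3).

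**Figure D3:**
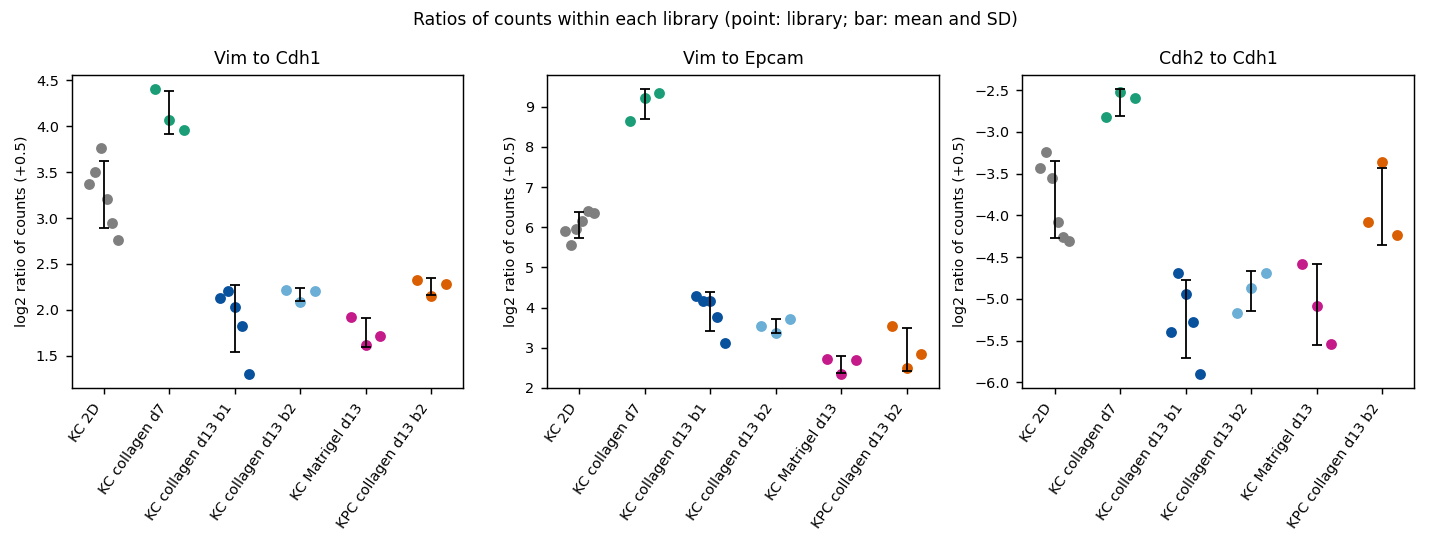
Log2 ratio of counts (0.5 added to each count) within each of 23 libraries for Vim to Cdh1, Vim to Epcam and Cdh2 to Cdh1, by group. Points are libraries and bars the mean and SD. The day 7 libraries are highest in all 3 ratios, and the 2D cells come next in the ratios with Vim.

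Levels of the 10 genes were also compared with each other over the 23 libraries, which share groups, so that the correlations describe group differences. Log2 levels of Vim and Cdh2 had a Pearson r of 0.83 and those of Vim and Epcam of -0.73. Snai2 and Twist1 had an r of 0.79, and Twist1 and Cdh1 of -0.77. The other transcription factors had an r with Cdh1 of -0.64 (Snai2), -0.24 (Zeb2) and -0.14 (Zeb1), and Snai1, at the detection limit, of -0.64. Among 6610 genes the closest to Epcam was Spint1, an inhibitor of serine proteases on epithelial surfaces (r = 0.95), and the closest to Vim were Denr (r = 0.95) and Hmga2 (r = 0.94). Cdh1 was followed most closely by Tnrc18 and Helz (r = 0.92 each) and Ctnnb1 by Lama5 (r = 0.89), a laminin chain of basement membranes.

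Related gene lists place these genes among others of the same function. Of 32 tested genes of epithelial junctions and surface, 22 were lower and 3 higher at day 7 than at day 13, with a median log2 fold change of -1.32 against 0.01 over all genes, of which 27.1% were lower. Spint1 stood at 2.38 CPM at day 7 against 27.6 and the desmosomal cadherin Dsc2 at 2.78 against 20.9 CPM, while the keratin Krt8 was higher at day 7 (2984 against 2209 CPM, log2 fold change 0.43, adjusted p = 0.0375 by edgeR). Of 11 epithelial regulators 7 were lower and 1 higher, among them the ETS factors Ehf (-2.86 ± 0.31) and Elf3 (-2.21 ± 0.28). Of 23 mesenchymal genes 11 were higher and 1 lower, where 28.1% of all genes were higher. The receptor kinase Axl (1.84 ± 0.11) and the adhesion molecule Ncam1 (1.75 ± 0.20) were among the higher.

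Of 11 further EMT transcription factors, 4 were higher and 3 lower at day 7, where 28.1% of all genes were higher and 27.1% lower. The same shares apply to the other lists of this paragraph, and counts of 3 lie near or under them. Hmga2, a chromatin protein of embryonic and tumor cells, stood at 450 against 73.7 CPM (log2 fold change 2.61 ± 0.15) and the AP-1 member Fosl1 at 149 against 47.3 CPM (1.65 ± 0.15), while Sox9 (-1.21 ± 0.26) and Tcf4 (-0.97 ± 0.16) were lower. Of 16 genes of the cadherin family and adherens junction, 3 were higher and 7 lower. Cdh17, the liver-intestine cadherin, stood at 469 against 321 CPM (0.55 ± 0.20, adjusted p = 0.0247) and Vcl (vinculin) was higher by 0.67 ± 0.13, whereas Nectin2 was lower (-1.18 ± 0.13). Of 13 genes of beta-catenin turnover and Wnt targets, 3 were higher and 5 lower, including Lgr4 (-1.55 ± 0.19).

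In Matrigel against collagen, 9 of the 32 epithelial junction genes were higher and 1 lower, where 6.62% of all genes were higher, and 6 of the 23 mesenchymal genes were higher. Lists with opposite names thus both had more members higher than lower. Examples are Cdcp1 (log2 fold change 1.41 ± 0.24) and the plakin Ppl (0.69 ± 0.20) among the first and Ncam1 (1.13 ± 0.21) among the second. Among further EMT factors Sox4 was higher (414 against 160 CPM, 1.37 ± 0.13) and Id1 and Id3, inhibitors of helix-loop-helix factors, were lower (-0.96 ± 0.15 and -0.996 ± 0.20). Of 11 epithelial regulators 2 were higher and 2 lower, where 6.62% and 6.29% of all genes were. The Krüppel-like factor Klf4 stood at 209 against 534 CPM (-1.35 ± 0.15), while Ehf was higher (0.63 ± 0.22).

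In KPC against KC organoids, 6 of the 32 epithelial junction genes were higher and 8 lower, where 9.58% and 10.4% of all genes were. The tight junction claudins Cldn7 (195 against 7.88 CPM, log2 fold change 4.62 ± 0.29) and Cldn3 (36.1 against 5.64 CPM, 2.67 ± 0.38) were higher, while Ppl was lower (-1.33 ± 0.25). Of the 11 further EMT factors 5 were higher and 2 lower, with Sox4 (0.94 ± 0.15) and Hmga2 (0.57 ± 0.18) among the higher. Of the 23 mesenchymal genes 3 were higher and 1 lower, with Ncam1 at 1.04 ± 0.26. Of 16 genes of the cadherin family and adherens junction, 2 were higher and 3 lower. Cdh13 stood at 91.3 against 207 CPM (-1.18 ± 0.18), while Nectin3 was higher (0.82 ± 0.21).

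In 2D cells against day 13 organoids, 20 of the 32 epithelial junction genes were lower and 1 higher, where 23.3% of all genes were lower. Of the 23 mesenchymal genes 9 were higher and 2 lower, where 26.3% of all genes were higher. Against day 7 organoids, 12 of the epithelial genes were higher and 6 lower, and 2 of the mesenchymal genes were higher and 9 lower. Of all genes 26.4% were higher and 24.8% lower there, and the counts of 6 and 2 lie under these shares. Lgals1, galectin 1, exceeded day 13 (1.09 ± 0.14), and the tight junction protein Ocln exceeded day 7 (1.44 ± 0.15). Between the batches of KC organoids, 14 of the 32 epithelial genes were higher and 1 lower in batch 2, where 19.3% of all genes were higher, with Evpl (1.56 ± 0.25) and the desmosomal cadherin Dsg2 (1.47 ± 0.27) as examples. The batches hold the same line, matrix and day by their labels, and a batch effect cannot be told apart from other differences between these cultures.

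**Figure D4:**
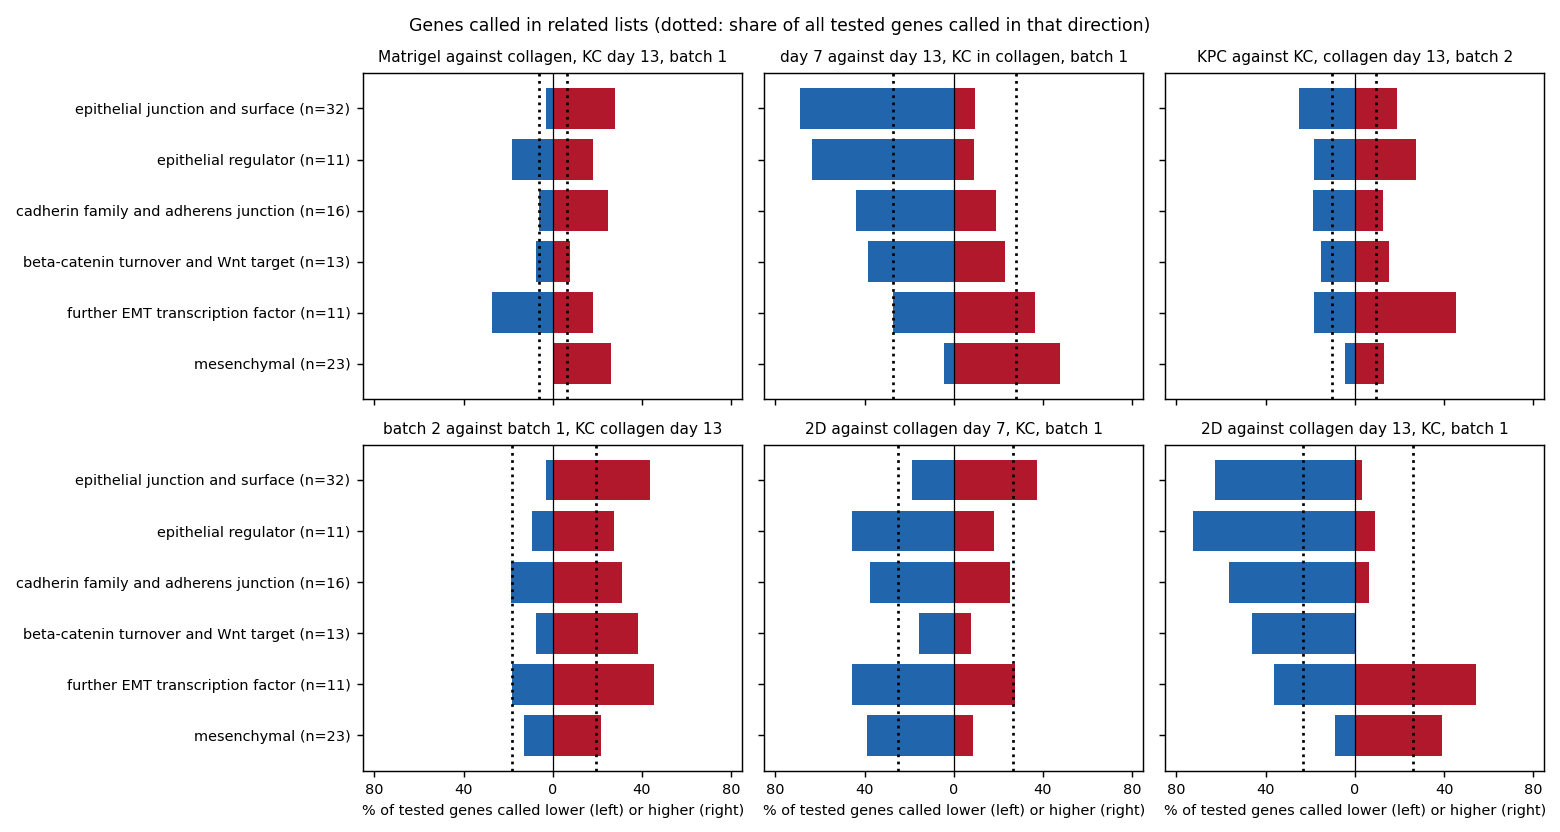
Percent of the tested genes of 6 related lists that were called higher (right, red) or lower (left, blue) in each of 6 comparisons, at an adjusted p under 0.1 by edgeR. Dotted lines are the percent of all 11144 tested genes called in that direction. At day 7 the epithelial lists extend to the left (22 of 32 junction genes) and the mesenchymal list to the right (11 of 23).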

How the data were processed

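Poly(A) RNA was sequenced from 3' ends with UMIs in 23 libraries. The authors tabulated UMIs for each gene after alignment to GRCm38 (Drop-seq pipeline 1.0, GENCODE M25), and the deposited counts are whole numbers without normalization. Median depth was 1845921 counts, and each 3' molecule is counted once, so that levels need no length correction.

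Counts were fitted in R 4.3.3 with edgeR 4.0.16, using its quasi-likelihood test (TMM, filterByExpr, 6 groups in 1 fit), with Benjamini-Hochberg adjusted p under 0.1 over 11144 genes. CPM divide by the TMM-scaled total of the tested genes, and correlations used log2 CPM with a prior count of 2. SE and 95% intervals are those of the fit. Simulated data served to test the scripts. DESeq2 1.42.0, other scalings, filters and thresholds, a replicate block and libraries left out were alternatives, of which the 2D sets left out together were chosen after seeing the data. Members and lists were chosen with earlier results of these data known. Named genes beyond the members were, per list and comparison, the called genes with the largest changes in either direction (mean in the higher group not under 20 CPM), and the 3 genes most correlated with each well-counted member. Positions are from GENCODE M21 and promoters from RefSeq GRCm38.p6. Some further alleles of the cells and some list genes are not reported here.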

Additional observations from a re-analysis of the deposited data

How the results depend on the processing

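Reversals occurred among differences that had not passed the test, and no called change of a member turned its sign under any alternative run. Among members called, KPC against KC had 1 with DESeq2 and 1 at a threshold of 0.05, and 2D against day 13 had 3 with library size alone. With only the compared groups in the fit, 4 were called in Matrigel, 6 at day 7, 2 in KPC and 7 between the batches. In 2D there were 4 against day 7 and 6 against day 13. This setting added Vim in Matrigel and Cdh1 and Ctnnb1 between the batches. It ended the calls of Cdh1 and Twist1 in 2D against day 7 and of Snai2 in 2D against day 13. With each library left out the count ran from 0 to 2 for KPC against KC (0 without KC replicate 1 or KPC replicate 2) and from 2 to 6 for batch 2 against batch 1. Over all genes it ran from 1647 to 1794 and from 3135 to 4257. Scaling by library size alone moved the median log2 fold change of all genes by -0.20 to 0.12. Of all genes it called 654 higher and 300 lower in Matrigel (738 and 701 with TMM), 1265 and 598 in KPC (1068 and 1155), 1416 and 2602 in batch 2 (2149 and 2013), and in 2D cells 1997 and 3324 against day 7 (2947 and 2759) and 1692 and 3613 against day 13 (2934 and 2592). Without Matrigel replicate 1 the Matrigel comparison called 901 genes in place of 1439.

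Log2 fold changes that reversed with library size alone were Twist1 in Matrigel (0.031), Cdh1 (0.0091), Ctnnb1 (0.033) and Vim (0.099) in KPC, Snai2 in 2D against day 7 (-0.0012) and Ctnnb1 in 2D against day 13 (-0.13). With all 8 KC libraries of both batches they were Twist1 in Matrigel (0.13) and Cdh1 (0.033), Snai2 (-0.27), Twist1 (-0.082) and Vim (0.27) in KPC. Without 2D replicates 1 to 3 they were Ctnnb1 (0.14) and Snai2 (-0.39) against day 7, and without 2D replicates 4 to 6 Ctnnb1 (-0.13) and Zeb2 (0.40) against day 13. With each library left out the ranges crossed 0 for Ctnnb1 (-0.16 to 0.049) and Snai2 (-0.056 to 0.33) in 2D against day 7, Ctnnb1 (-0.016 to 0.13) and Zeb2 (-0.36 to 0.0070) in 2D against day 13, Twist1 (-0.14 to 0.072) and Zeb2 (-0.71 to 0.11) in Matrigel, Ctnnb1 at day 7 (-0.0024 to 0.20), and Vim (-0.11 to 0.020) and Zeb1 (-0.043 to 0.42) in KPC.

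Same-numbered libraries shared only a number, since their deviations had a mean r of -0.0016 over 47 pairs (-0.12 to 0.19). With the replicate block the members called numbered 3, 5, 2, 6, 5 and 7 in the order Matrigel, day 7, KPC, batch, 2D against day 7 and 2D against day 13. The block ended the calls of Cdh1 at day 7 (-0.16, adjusted p = 0.312) and of Zeb2 in 2D against day 7 (-0.84, adjusted p = 0.101) and added Cdh1 between the batches (0.39, adjusted p = 0.0167). Under the block Snai2 in Matrigel (-0.065), Twist1 at day 7 (-0.040) and Zeb2 in 2D against day 13 (0.056) reversed. The cause of these changes was not tested. Depth limits Snai1 in all groups and Snai2 in batch 2.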
